A study of Mus musculus with 14 samples.

Results

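The 31 genes described here encode proteins of the skeletal muscle fibre, measured in RNA from mouse skin. They were taken by gene symbol from a count table of 56953 genes, and all 31 were found. All 31 also passed the filter on low counts, which left 16027 genes for testing. By role they were 7 genes of the thick filament (Myh1, Myh2, Myh4, Myl1, Mylpf, Mybpc1 and Mybpc2), 6 of the thin filament (Acta1, Neb, Tnnc2, Tnni2, Tnnt3 and Tpm2), 8 of the Z-disc and the elastic filament anchored there (Actn2, Actn3, Des, Ldb3, Myot, Myoz1, Tcap and Ttn), 6 of calcium handling (Atp2a1, Cacna1s, Casq1, Pvalb, Ryr1 and Trdn) and 4 of energy supply (Ckm, Eno3, Mb and Pygm).

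Under the skin of the mouse trunk lies the panniculus carnosus, a thin sheet of striated muscle that moves the skin and is made largely of fast-twitch fibres. Each fibre contracts by sliding thick filaments of myosin along thin filaments of actin, which are anchored at Z-discs. Calcium released from the sarcoplasmic reticulum starts the contraction, and creatine kinase and glycogen breakdown supply the energy. The dermal fat layer lies between this muscle and the dermis. RNA from a piece of skin holds muscle transcripts only as far as muscle was taken with it, and they can serve as a sign of how deep a sample reached. No label says whether the panniculus was included.

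The study set 3 genotypes against 2 treatments, which makes 6 groups and 14 libraries. There were 2 DMSO and 2 imiquimod libraries of wild-type C57BL/6J mice. Mice of genotype NEDD8fl/fl that lack the recombinase (K14-CreERT neg), here Cre-negative, contributed 3 DMSO and 2 imiquimod libraries, and those that carry it (K14-CreERT pos), here the knockout, the same numbers. Both of the last genotypes carry floxed Nedd8, the gene of a ubiquitin-like protein that activates cullin-RING ligases. CreERT is a recombinase switched on by tamoxifen-type drugs, and the K14 promoter is active in basal keratinocytes, not in muscle. The knockout mice were induced on 5 consecutive days before the experiment, and no induction is given for the other mice. Imiquimod, an agonist of Toll-like receptor 7, was given daily as Aldara cream with 5% of the drug, from day 0 to day 7. Application to the back and to the right ear are both described, with no site for a given library. No library with the cream's vehicle alone was analysed here. The series' design text instead describes a short course of a NEDD8 inhibitor or DMSO on back skin, and the extraction text speaks of treated cells, so how the DMSO samples were taken is uncertain. No age is given, and nothing says that libraries of a group came from separate animals, so p-values measure the spread between these samples.

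The libraries held 5552954 to 34362477 counts. Counts of 18S ribosomal RNA made up 3.84 to 19.1% of a library and were highest in Cre-negative imiquimod replicate 2 and knockout DMSO replicate 1. By Xist and Y-linked genes, the 4 libraries of wild-type mice were female, as were the 3 of the knockout with DMSO, all 4 imiquimod libraries of the floxed genotypes were from males, and Cre-negative DMSO held 2 males and 1 female. Genotype, treatment and sex are therefore partly confounded. Only the Cre-negative DMSO group held both sexes, so a term for sex in the model rests on its 1 female library. Nedd8, the targeted gene, had 359.5, 289.7 and 291 CPM (counts scaled to the size of the library) in the Cre-negative DMSO libraries and 375, 158 and 147 CPM in the knockout DMSO libraries. The Nedd8 groups overlapped, and its log2 fold change of -0.47 ± 0.40 (SE) had an adjusted p of 0.403. The deleted part of the gene is not given and the reads lie near the 3′ end, so this does not check the deletion.

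The muscle genes were high in skin of both control genotypes with DMSO and low in every other group. Their summed level was 21091 and 16043 CPM in the wild-type DMSO libraries and 37919, 20667 and 14889.7 CPM in the Cre-negative DMSO libraries. With imiquimod it was 8284 and 3506 CPM in wild-type and 2384 and 3646 CPM in Cre-negative skin. Knockout skin had 6835, 7076 and 4109.9 CPM with DMSO and 9058 and 3333 CPM with imiquimod. Each of the 5 control DMSO libraries lay above each of the other 9 libraries, and knockout skin was in the low range already without imiquimod. Group means were 18567 ± 3569 (SD, n = 2) and 24492 ± 11981 (SD, n = 3) in the wild-type and Cre-negative DMSO groups. The means of the low groups were 5895 ± 3379 (SD, n = 2) for wild-type imiquimod, 3015 ± 892 (SD, n = 2) for Cre-negative imiquimod, 6007 ± 1647 (SD, n = 3) for knockout DMSO and 6196 ± 4048 (SD, n = 2) for knockout imiquimod. The mean of the Cre-negative DMSO libraries was 4.08 times that of the knockout DMSO and 8.12 times that of the Cre-negative imiquimod libraries, and the wild-type mean was 3.15 times higher with DMSO than with imiquimod. In shares of all counts, the 31 genes held 2.37% of a wild-type and 2.90% of a Cre-negative DMSO library on average, against 0.237% in Cre-negative imiquimod and 0.550% in knockout DMSO. These levels are relative to all the RNA of a library. In RNA from whole tissue, fewer muscle fibres, less of these transcripts in each fibre and more RNA from other cells cannot be told apart.

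**Figure D1:**
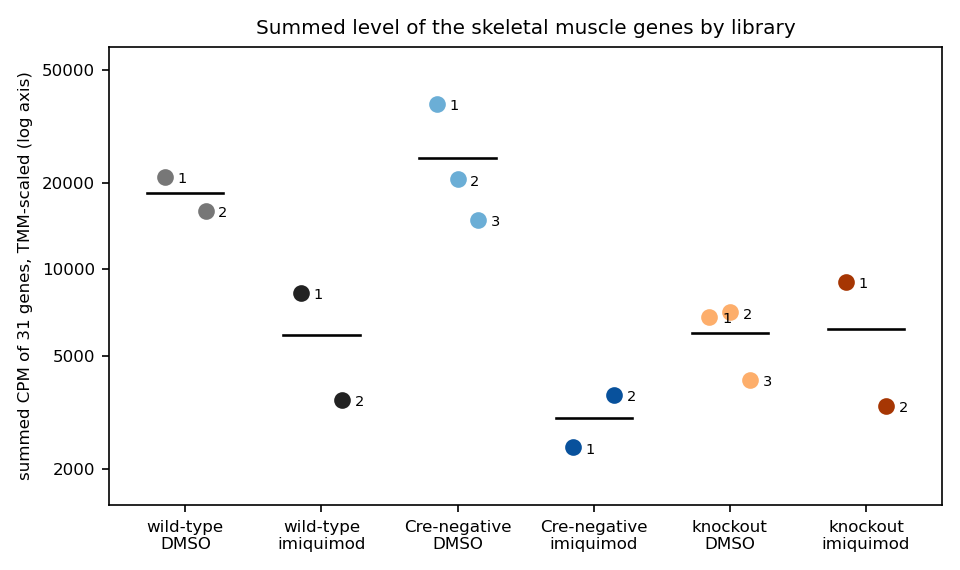
Summed level of the 31 skeletal muscle genes in each library, in TMM-scaled CPM on a log axis, by group. Points are libraries with their replicate number and bars are group means; the 5 control DMSO libraries, at 14889.7 CPM or more, lie above all others, which reach at most 9058 CPM.

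The promoters of 5 members are shown, with the matches to 3 short motifs known from muscle promoters, because these genes differ in how they moved. Myh4, Myh1 and Myh2 are neighbouring myosin genes. Casq1 was among the members with the largest differences, and Des with the smallest. Each sequence is the 250 bases before the transcript start in the RefSeq table of build GRCm38.p6, 5′ to 3′ on the strand of the gene. Capitals mark matches to the E-box CAGCTG bound by MyoD-type factors, to the MEF2 site and to the CArG box bound by serum response factor. All 3 patterns read the same on both strands, and the matches do not overlap in these windows.
Myh4 (chr11:67237562-67237811, plus strand): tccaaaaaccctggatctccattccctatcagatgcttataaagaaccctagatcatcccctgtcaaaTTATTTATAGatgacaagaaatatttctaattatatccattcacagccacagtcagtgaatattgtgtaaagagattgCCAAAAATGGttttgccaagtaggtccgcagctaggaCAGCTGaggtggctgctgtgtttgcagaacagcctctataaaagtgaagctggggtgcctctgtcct
Myh1 (chr11:67199852-67200101, plus strand): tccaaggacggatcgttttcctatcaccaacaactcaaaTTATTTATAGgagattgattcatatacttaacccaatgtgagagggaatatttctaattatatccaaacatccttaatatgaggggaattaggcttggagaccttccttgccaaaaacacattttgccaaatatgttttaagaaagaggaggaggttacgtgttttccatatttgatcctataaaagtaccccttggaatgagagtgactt
Myh2 (chr11:67170777-67171026, plus strand): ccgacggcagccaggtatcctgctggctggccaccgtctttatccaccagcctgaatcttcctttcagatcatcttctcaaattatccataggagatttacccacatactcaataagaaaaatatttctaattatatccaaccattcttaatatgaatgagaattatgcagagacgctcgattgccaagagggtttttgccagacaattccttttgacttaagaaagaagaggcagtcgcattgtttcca
Casq1 (chr1:172219896-172220145, minus strand): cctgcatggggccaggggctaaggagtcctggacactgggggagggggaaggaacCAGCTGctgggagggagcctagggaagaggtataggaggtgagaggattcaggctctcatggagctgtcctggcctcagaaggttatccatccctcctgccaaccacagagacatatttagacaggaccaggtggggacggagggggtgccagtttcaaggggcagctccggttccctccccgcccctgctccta
Des (chr1:75360042-75360291, plus strand): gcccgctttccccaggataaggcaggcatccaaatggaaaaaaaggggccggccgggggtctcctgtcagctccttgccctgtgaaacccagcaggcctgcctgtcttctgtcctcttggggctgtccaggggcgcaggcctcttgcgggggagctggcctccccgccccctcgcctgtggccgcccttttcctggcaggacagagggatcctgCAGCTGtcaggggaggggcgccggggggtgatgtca

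The Myh4 window holds 1 match to each of the 3 patterns. Myh1 has the MEF2 site alone, Casq1 and Des have the E-box alone, and the Myh2 window has none of the 3. RefSeq windows were found for 23 of the 31 genes. Of these 23, 13 held CAGCTG, or 56.5%, against 14.7% of the 27025 genes with a window of that length. The MEF2 site was in 4 of the 23 (17.4%, against 3.42% of all genes) and the CArG box in 3 (13.04%, against 1.62%). In all, 17 of the 23 held at least 1 of the patterns and 6 held none. These are matches of letters and do not show binding.

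Between knockout and Cre-negative skin with DMSO, 23 of the 31 muscle genes were lower in the knockout by the quasi-likelihood test of edgeR, Benjamini-Hochberg adjusted over all genes, and 0 were higher. Of all genes tested, 15.7% were lower and 14% higher in this comparison. The log2 fold change of the 31 genes had a median of -2.14 and ran from -4.19 for Pvalb to -0.66 for Des, beside a median of -0.06 over all genes. In 24 members every knockout library lay below every Cre-negative library, against 26.5% of all genes. All 6 calcium handling and all 4 energy supply genes fell, as did 5 of 7 thick filament, 4 of 6 thin filament and 4 of 8 Z-disc genes. The 8 members that did not pass were Myh2 (-1.19), Mybpc1 (-0.96), Tnni2 (-1.53), Tpm2 (-0.88), Myot (-1.03), Tcap (-0.98), Actn2 (-0.71) and Des (-0.66). With sex as a term in the model 6 of the 31 were called, with a median of -1.43, and the only female Cre-negative DMSO library, replicate 3, had a summed level of 14889.7 CPM, above all 3 knockout libraries, which were female. Leaving out 1 library at a time gave 17 to 24 calls, and 17 of the 23 genes kept their call in each such fit.

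**Figure D2:**
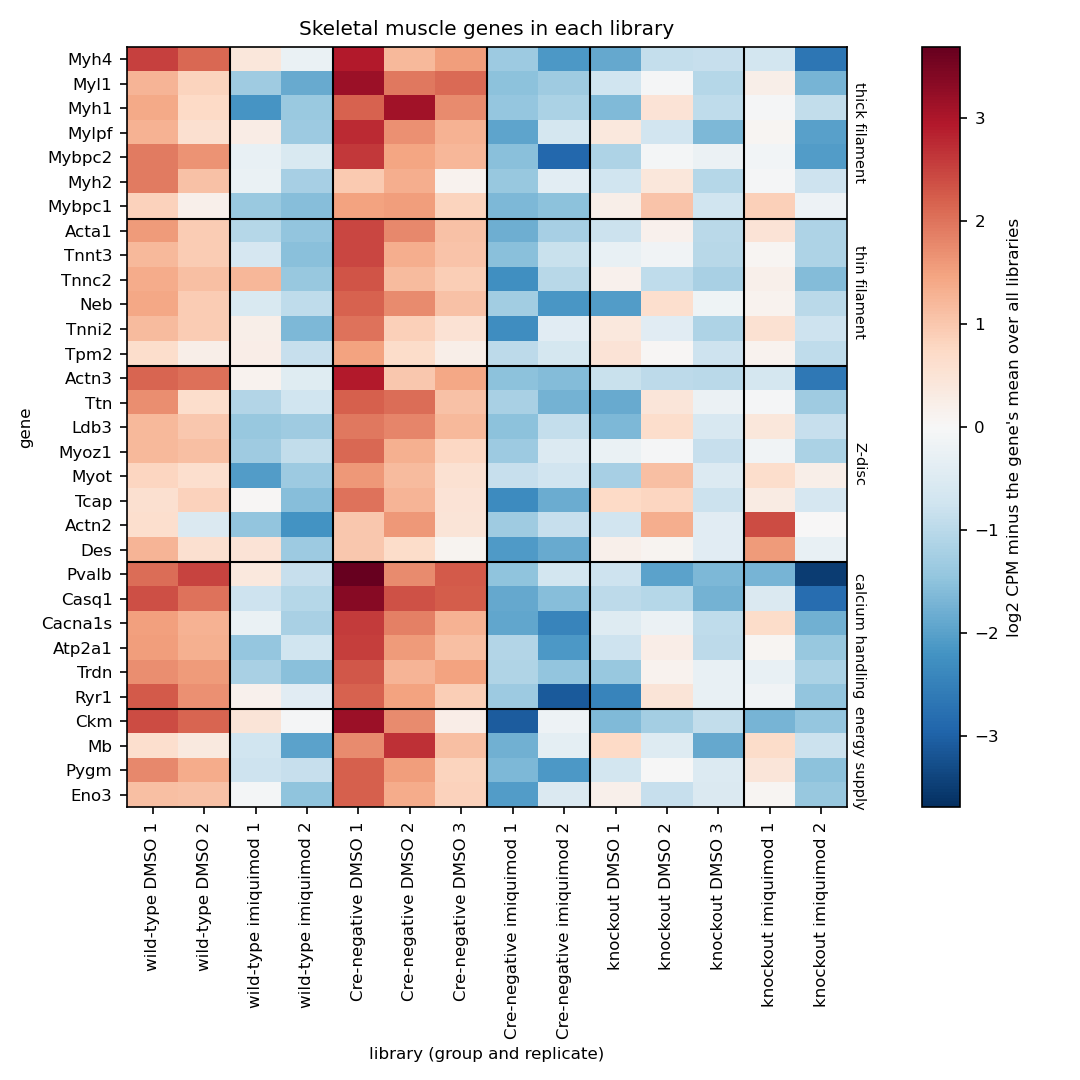
Level of each of the 31 genes (rows, by role) in each of the 14 libraries (columns, by group), as log2 CPM minus the gene's mean over the libraries. The 5 control DMSO libraries are red for nearly all rows, and Actn2 and Des are red in knockout imiquimod replicate 1 as well.

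The thick filament genes include the fast myosin heavy chains. Myh4 (ENSMUSG00000057003.13, chr11:67128855-67151272 on GRCm39, the build of the count table) encodes the heavy chain of the fastest fibres, type IIb. With DMSO its level was 3255 and 2419.8 CPM in wild-type, 4255, 1281 and 1627 CPM in Cre-negative and 151, 303 and 313 CPM in knockout libraries. With imiquimod it was 746 and 476 CPM in wild-type, 224 and 129 CPM in Cre-negative and 351 and 87.8 CPM in knockout libraries. The 5 control DMSO libraries were all above the 9 others. Myh4 fell in the knockout with DMSO, with a log2 fold change of -3.22 ± 0.59 (SE, adjusted p = 0.00144), and fell with imiquimod in wild-type skin (-2.22 ± 0.69 SE, adjusted p = 0.0369) and in Cre-negative skin (-3.76 ± 0.72 SE, adjusted p = 0.00326). In knockout skin the value with imiquimod was -0.22 ± 0.61 (SE, adjusted p = 0.858).

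Myh1 (ENSMUSG00000056328.15, chr11:67090878-67115401, GRCm39), the heavy chain of type IIx fibres, is the neighbour of Myh4. The DMSO levels of Myh1 were 378 and 240.3 CPM in wild-type, 650.3, 1246 and 488 CPM in Cre-negative and 46.9, 203 and 75.8 CPM in knockout libraries. The imiquimod levels were 32.02 and 56.0 CPM in wild-type, 53.7 and 64.3 CPM in Cre-negative and 141 and 76.5 CPM in knockout libraries. Cre-negative DMSO replicate 2 was the highest, and all control DMSO libraries lay above all others. Myh1 fell in the knockout with DMSO (-2.87 ± 0.54 SE, adjusted p = 0.00176). Myh2 (ENSMUSG00000033196.18, chr11:67061853-67088343, GRCm39), the chain of type IIa fibres, had 128 and 71.5 CPM in wild-type, 66.7, 86.0 and 37.2 CPM in Cre-negative and 20.6, 45.8 and 16.4 CPM in knockout libraries with DMSO. With imiquimod Myh2 had 28.9 and 14.5 CPM in wild-type, 12.9 and 26.1 CPM in Cre-negative and 33.3 and 20.3 CPM in knockout libraries. Its Cre-negative and knockout DMSO libraries overlapped (-1.19 ± 0.47 SE, adjusted p = 0.0702).

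Mybpc1, the slow-type myosin-binding protein C, had 90.4 and 56.9 CPM in wild-type, 140.1, 146 and 87.9 CPM in Cre-negative and 58.6, 104 and 29.8 CPM in knockout libraries with DMSO. Its imiquimod levels were 19.3 and 16.9 CPM in wild-type, 15.8 and 17.4 CPM in Cre-negative and 91.3 and 43.8 CPM in knockout libraries. The DMSO libraries of the knockout overlapped the Cre-negative ones (-0.96 ± 0.42 SE, adjusted p = 0.0984), and with imiquimod both knockout libraries were above both Cre-negative ones. The fast-type form Mybpc2 went from 213 ± 117 to 43.1 ± 15.3 CPM, a log2 fold change of -2.30, as group mean ± SD over 3 libraries each. Myl1, an alkali light chain, went from 787 ± 396 to 95.03 ± 34.9 CPM, a log2 fold change of -3.05. Mylpf, the phosphorylatable light chain of fast fibres, went from 1372 ± 761 to 249 ± 169.8 CPM, a log2 fold change of -2.47. All 3 passed the test and fell in the knockout.

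Among the thin filament genes, Acta1 (ENSMUSG00000031972.6, chr8:124618508-124621490, GRCm39) encodes skeletal muscle actin. With DMSO it had 2834 and 1855 CPM in wild-type, 5298, 3305 and 2050.3 CPM in Cre-negative and 550.4, 1080.1 and 481 CPM in knockout libraries. With imiquimod it had 466 and 352 CPM in wild-type, 274 and 413 CPM in Cre-negative and 1353 and 435 CPM in knockout libraries. Each knockout DMSO library was below each Cre-negative one, and Acta1 fell (-2.34 ± 0.50 SE, adjusted p = 0.00373). Tpm2, the beta-tropomyosin that smooth muscle also makes, had 1390.3 and 1031 CPM in wild-type, 2495, 1407 and 1027 CPM in Cre-negative and 1256, 903 and 522 CPM in knockout libraries with DMSO. With imiquimod Tpm2 had 1049.6 and 488 CPM in wild-type, 449.8 and 558 CPM in Cre-negative and 969.9 and 459 CPM in knockout libraries. Its knockout and Cre-negative DMSO libraries overlapped, and the difference did not pass (-0.88 ± 0.45 SE, adjusted p = 0.154).

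The fast troponins bind calcium and hold the thin filament switched off at rest. Tnnc2, which binds the calcium, went from 3091 ± 1736 to 701 ± 374 CPM, a log2 fold change of -2.14, and Tnnt3, which binds tropomyosin, went from 1132 ± 622 to 250.01 ± 75.8 CPM, a log2 fold change of -2.18. Neb, the giant protein that runs along the filament, went from 449 ± 163 to 119 ± 86.4 CPM, a log2 fold change of -1.91. These 3 fell. Tnni2, the inhibitory subunit, was at 3309, 1519.7 and 1190.3 CPM in Cre-negative and 1091, 616 and 380.3 CPM in knockout DMSO libraries, which did not overlap, but with an adjusted p of 0.0816 it did not pass.

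Among the Z-disc genes, Actn3, the alpha-actinin of fast fibres, had 169 and 158 CPM in wild-type, 289, 76.1 and 104 CPM in Cre-negative and 21.7, 19.4 and 18.97 CPM in knockout libraries with DMSO. With imiquimod Actn3 had 42.1 and 27.7 CPM in wild-type, 13.3 and 12.5 CPM in Cre-negative and 24.3 and 6.11 CPM in knockout libraries. The knockout DMSO libraries were close together and lay below all DMSO libraries of both control genotypes, and Actn3 fell (-2.97 ± 0.53 SE, adjusted p = 0.00124). Des, the intermediate filament desmin, which smooth muscle also makes, had 729.7 and 464 CPM in wild-type, 616, 489.8 and 330.4 CPM in Cre-negative and 352, 328 and 228 CPM in knockout libraries with DMSO. With imiquimod it had 437 and 122 CPM in wild-type, 72.0 and 84.8 CPM in Cre-negative and 905 and 256 CPM in knockout libraries. Knockout imiquimod replicate 1 was the highest of the 14 libraries for Des and the Cre-negative imiquimod libraries were the lowest. Between Cre-negative and knockout skin with DMSO the libraries overlapped (-0.66 ± 0.49 SE, adjusted p = 0.333).

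Actn2, the alpha-actinin found in all striated muscle, is named after its values were seen. It had 22.1 and 9.90 CPM in wild-type, 28.5, 43.0 and 19.9 CPM in Cre-negative and 8.66, 36.2 and 10.6 CPM in knockout libraries with DMSO. Its levels with imiquimod were 5.23 and 3.12 CPM in wild-type, 5.74 and 7.87 CPM in Cre-negative and 75.8 and 14.5 CPM in knockout libraries. It was highest in knockout imiquimod replicate 1, and its DMSO libraries overlapped between Cre-negative and knockout skin (-0.71 ± 0.62 SE, adjusted p = 0.409). Ttn, the giant spring titin, went from 1725 ± 644 to 391 ± 254 CPM, a log2 fold change of -2.14. Ldb3 and Myoz1, which hold the Z-disc together, fell as well, at -1.91 and -1.86. Myot (myotilin) and Tcap (telethonin, the cap of titin) did not pass, with 1495, 891 and 529 CPM of Tcap in Cre-negative and 620.5, 643 and 213 CPM in knockout DMSO libraries.

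Calcium handling genes held the 2 members with the lowest fold changes. Pvalb, the calcium buffer parvalbumin of fast fibres, had 391 and 531 CPM in wild-type, 1215, 315 and 455 CPM in Cre-negative and 55.3, 24.1 and 29.9 CPM in knockout libraries with DMSO. Imiquimod libraries had 122 and 52.0 CPM in wild-type, 33.6 and 58.9 CPM in Cre-negative and 28.6 and 8.24 CPM in knockout libraries. All 5 knockout libraries lay at or below 55.3 CPM, and Pvalb fell in the knockout with DMSO (-4.19 ± 0.64 SE, adjusted p = 0.000413). Casq1, the calcium store of the sarcoplasmic reticulum, is named after its values were seen. Its DMSO levels were 134 and 104 CPM in wild-type, 267, 133 and 123 CPM in Cre-negative and 13.2, 12.5 and 7.75 CPM in knockout libraries. Those with imiquimod were 15.3 and 12.5 CPM in wild-type, 7.03 and 8.75 CPM in Cre-negative and 17.8 and 3.72 CPM in knockout libraries. The 5 control DMSO libraries held at least 104 CPM and the 9 others at most 17.8 CPM. Casq1 fell in the knockout with DMSO (-3.98 ± 0.52 SE, adjusted p = 0.000129).

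Ryr1, the calcium release channel, had 177 and 120.0 CPM in wild-type, 169, 104 and 70.2 CPM in Cre-negative and 6.88, 52.2 and 30.7 CPM in knockout libraries with DMSO. With imiquimod Ryr1 had 41.4 and 27.8 CPM in wild-type, 14.6 and 4.31 CPM in Cre-negative and 34.3 and 13.5 CPM in knockout libraries. Its knockout DMSO libraries were spread widely but all below the Cre-negative ones, and it fell (-1.92 ± 0.63 SE, adjusted p = 0.0341). Cacna1s, the voltage sensor that opens this channel, went from 41.3 ± 18.9 to 7.21 ± 1.72 CPM, a log2 fold change of -2.53. Atp2a1, the pump that returns calcium to the store, went from 657 ± 349 to 137 ± 66.0 CPM, a log2 fold change of -2.26, and Trdn, which ties the channel to Casq1, went from 217 ± 86.3 to 49.5 ± 23.1 CPM, a log2 fold change of -2.12. All 3 passed.

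Of the energy genes, Ckm (ENSMUSG00000030399.3, chr7:19144950-19156766, GRCm39) encodes muscle creatine kinase. With DMSO it had 891 and 738 CPM in wild-type, 1495, 558 and 199.6 CPM in Cre-negative and 54.5, 70.6 and 89.4 CPM in knockout libraries. With imiquimod it had 231 and 163 CPM in wild-type, 19.9 and 148 CPM in Cre-negative and 51.0 and 61.7 CPM in knockout libraries. The Cre-negative DMSO libraries differed widely among themselves and still lay above the knockout ones, where Ckm fell (-3.39 ± 0.72 SE, adjusted p = 0.00365). Eno3, the muscle enolase of glycolysis, had 218 and 214 CPM in wild-type, 461, 260.0 and 182 CPM in Cre-negative and 115, 55.2 and 69.4 CPM in knockout libraries with DMSO. Under imiquimod Eno3 had 95.5 and 35.7 CPM in wild-type, 24.1 and 69.8 CPM in Cre-negative and 105 and 38.2 CPM in knockout libraries. It fell in the knockout with DMSO, in libraries that did not overlap (-1.92 ± 0.54 SE, adjusted p = 0.0164). Pygm, the glycogen phosphorylase, went from 76.5 ± 35.4 to 19.2 ± 4.75 CPM, a log2 fold change of -1.99, and Mb, the oxygen store myoglobin, went from 243 ± 136 to 53.6 ± 43.1 CPM, a log2 fold change of -2.20, and both fell.

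The muscle genes were lower with imiquimod than with DMSO in wild-type skin. Of the 31 genes, 19 fell and 0 rose, while 11.8% of all genes fell and 9.59% rose. Their median log2 fold change was -2.18, from -3.10 for Casq1 to -0.66 for Tpm2, beside -0.09 over all genes. In 29 members both imiquimod libraries lay below both DMSO libraries, against 34.3% of all genes. Among those that fell were Acta1 (-2.52 ± 0.61 SE, adjusted p = 0.0124), Myh1 (-2.81), Myh2 (-2.20) and Trdn (-2.99). Ckm, Ryr1, Des, Tnnc2 and 8 others did not pass, at -2.05, -2.10, -1.09 and -0.81. The count rests on few libraries: it was 4 without wild-type DMSO replicate 1, 12 without replicate 2, 2 without wild-type imiquimod replicate 1 and 7 without replicate 2. Casq1 and Trdn kept their call in each of these fits.

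The fall with imiquimod covered nearly the whole set in Cre-negative skin. Here 30 of the 31 genes fell, against 10.1% of all genes, and 0 rose, against 8.15%. The remaining one, Actn2, had a log2 fold change of -2.15 ± 0.75 (SE, adjusted p = 0.0623). The median was -3.20, from -4.46 for Casq1 to -1.69 for Myh2. In all 31 genes both imiquimod libraries lay below all 3 DMSO libraries, against 29.5% of all genes. Acta1 fell at -3.37 ± 0.62 (SE, adjusted p = 0.00252), Ckm at -3.16 ± 0.84 (SE, adjusted p = 0.0203) and Cacna1s at -4.18 ± 0.70 (SE, adjusted p = 0.00152). Without Cre-negative imiquimod replicate 1 the count was 18, and without replicate 2 it was also 18. In 14 of the 30 genes, Acta1, Casq1 and Cacna1s among them, the call held whichever library was left out. The imiquimod libraries were from males and the DMSO libraries from both sexes, and with sex as a term 30 genes were called. That term rests on the 1 female library of the DMSO group, so it is a weak adjustment for sex.

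In knockout skin imiquimod gave no call. By edgeR's quasi-likelihood test 0 of 31 genes were called, where 2.52% of all genes fell and 8.56% rose, and 0 members had an unadjusted p under 0.05. In 0 members were the 2 groups apart, against 18.9% of all genes lower and 22.5% higher. DESeq2 and limma's voom also called 0, and the fit without a filter on low counts called 1. The median log2 fold change was -0.04, from -0.97 for Pvalb to 1.28 for Actn2, with standard errors of 0.43 to 0.74. The 2 imiquimod libraries differed from each other in summed level, 9058 and 3333 CPM, and enclosed the DMSO libraries. The DMSO libraries were all female and the imiquimod libraries all male, so sex and treatment cannot be told apart within this genotype.

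The response to imiquimod differed between the genotypes. For 26 of the 31 genes the change in knockout skin was higher than in Cre-negative skin, against 14% of all genes, and for 0 it was lower, against 9.63%. The log2 difference between the responses had a median of 3.20, beside 0.11 over all genes, and was largest for Cacna1s (4.64 ± 0.87 SE, adjusted p = 0.00347), Casq1 (4.43 ± 0.77 SE, adjusted p = 0.00256) and Myl1 (4.001 ± 0.76 SE, adjusted p = 0.00369). This contrast uses the same DMSO libraries as the comparisons above, so the low knockout DMSO levels enter it directly. Ckm, Myh2, Mylpf, Tpm2 and Tnni2 did not pass. The count was 6 without knockout imiquimod replicate 1, 14 without Cre-negative imiquimod replicate 1, 17 without Cre-negative imiquimod replicate 2 and 5 with sex as a term. Acta1, Cacna1s, Casq1, Myh1, Myl1 and Pygm kept their call whichever library was left out.

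**Figure D3:**
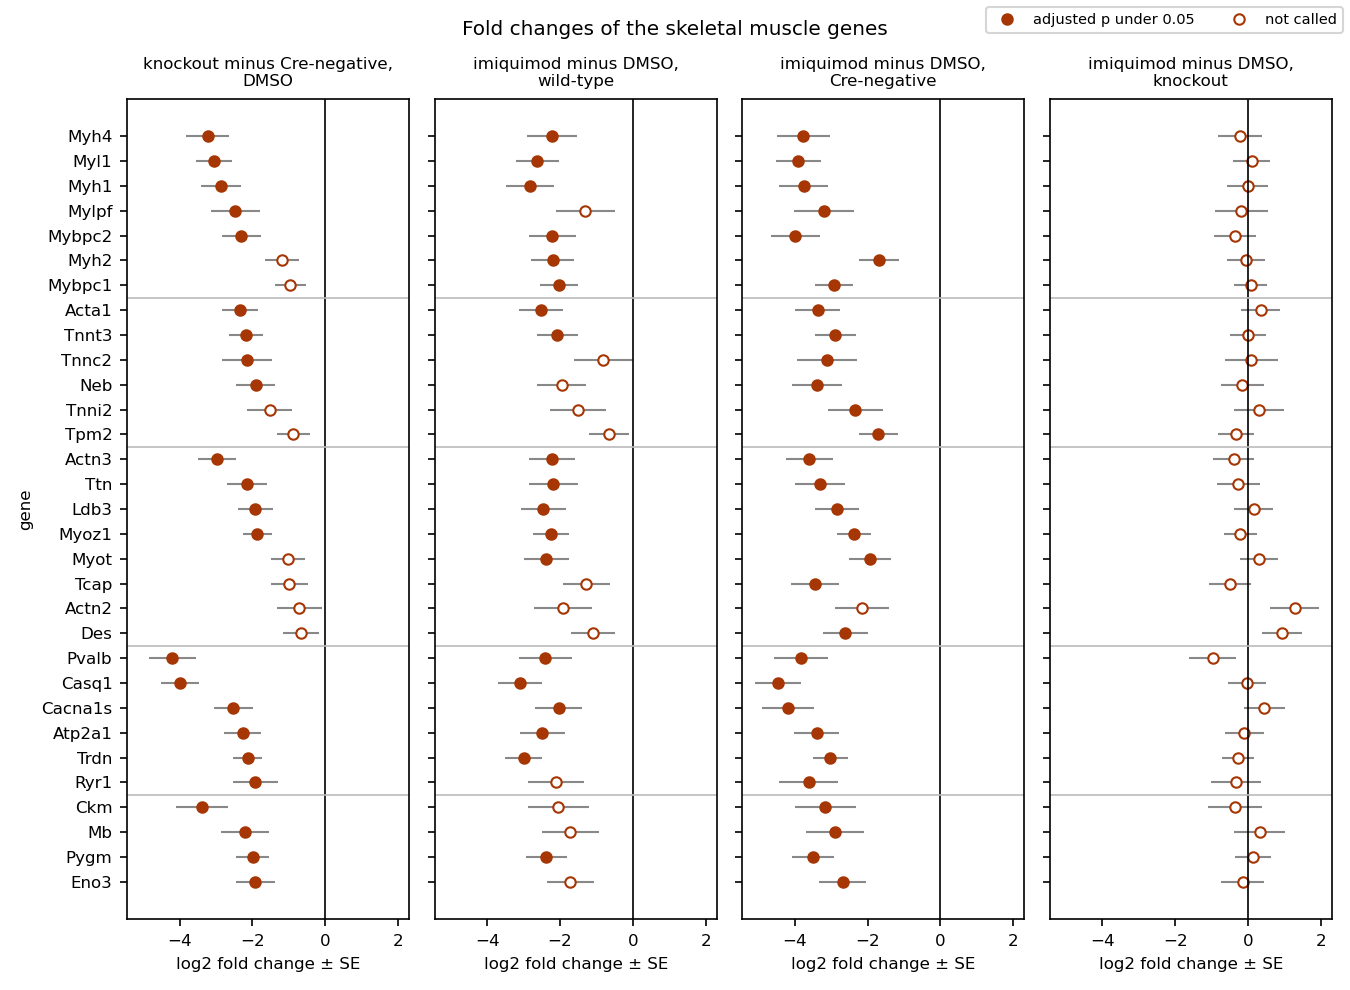
Log2 fold change ± SE of each of the 31 genes (rows, by role) in 4 comparisons, with filled points where edgeR's adjusted p was under 0.05. The medians are -2.14, -2.18 and -3.20 in the first 3 panels and -0.04 in the panel of imiquimod in knockout skin, where no point is filled.

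Between the genotypes with imiquimod, 4 of the 31 genes were higher in the knockout and 0 lower, against 11.6% of all genes higher and 6.33% lower. They were Des (2.89 ± 0.65 SE, adjusted p = 0.0087), Actn2 (2.72 ± 0.81 SE, adjusted p = 0.0327), Cacna1s (2.11 ± 0.68 SE, adjusted p = 0.0473) and Mybpc1 (2.03 ± 0.53 SE, adjusted p = 0.0186). The median over the 31 was 1.01, from -1.33 for Pvalb to 2.89 for Des. In 11 members both knockout libraries were above both Cre-negative ones, against 30.7% of all genes, and in Pvalb both were below, against 25.3%. A share of 4 in 31 is near that of all genes. Without Cre-negative imiquimod replicate 1, without its replicate 2 or without knockout imiquimod replicate 1, 0 members were called, and without both libraries high in 18S ribosomal RNA, a fit chosen after the data were seen, 0 as well.

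The 2 control genotypes were also compared with DMSO, since the knockout differs from wild-type skin in its floxed alleles too. Of the 31 genes 0 differed between Cre-negative and wild-type skin by edgeR's quasi-likelihood test, as did 0 of all genes. At an unadjusted p under 0.05 there were 2 members, Myl1 (1.45) and Myh1 (1.36), and 1120 of all genes. DESeq2 and limma's voom called 0 members, and the fit without a filter on low counts called 2. The median was 0.48, and in 5 members every Cre-negative library was above both wild-type ones, against 16.1% of all genes. Against wild-type skin with DMSO, 16 members were lower in the knockout and 0 higher, against 14.4% of all genes lower and 11.3% higher, with a median of -1.56. In 25 members every knockout library lay below both wild-type ones, against 29.6% of all genes. Pvalb (-3.67 ± 0.65 SE, adjusted p = 0.0015), Ckm (-3.51 ± 0.76 SE, adjusted p = 0.00478), Myh4 (-3.47 ± 0.62 SE, adjusted p = 0.0016) and Casq1 (-3.43 ± 0.53 SE, adjusted p = 0.000583) were the lowest. All libraries of this contrast were female. The count was 6 without wild-type DMSO replicate 1, 9 without wild-type DMSO replicate 2 and 8 without knockout DMSO replicate 3, and Actn3, Casq1, Ckm, Myh4, Pvalb and Trdn kept their call each time.

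The heavy chain genes give a view of the fibre types. Exon lengths of Myh1, Myh2 and Myh4 are 6087, 6083 and 6016 bases, and dividing by exon length moved no share by more than 0.375 percentage points. Of the counts of 6 heavy chain genes (Myh1, Myh2, Myh3, Myh4, Myh7 and Myh8), Myh4 took 86.5 and 88.6% in the wild-type DMSO libraries and 92.4 and 87.0% with imiquimod. It took 85.6, 48.9 and 75.5% in Cre-negative DMSO, 76.8 and 58.7% in Cre-negative imiquimod, 69.0, 54.7 and 77.1% in knockout DMSO and 66.5 and 47.0% in knockout imiquimod libraries. All 4 wild-type libraries were at 86.5% or more, and all 10 libraries of the floxed genotypes were lower. Myh1 made up most of the rest, with 13.1, 47.6 and 22.6% in Cre-negative DMSO and 21.5, 36.7 and 18.7% in knockout DMSO libraries. Myh2 took 1.34, 3.29 and 1.72% in Cre-negative DMSO and 9.46, 8.27 and 4.04% in knockout DMSO, groups that did not overlap, and 3.41 and 2.62% in wild-type DMSO skin. Under imiquimod Myh2 took 3.57 and 2.65% in wild-type, 4.44 and 11.8% in Cre-negative and 6.31 and 10.9% in knockout libraries. Higher Myh2 shares were thus not particular to the knockout. The knockout DMSO shares rest on 856, 5705 and 14394 heavy chain counts, and the exact 95% interval for Myh2 in the shallowest, replicate 1, was 7.59 to 11.6%. Intervals and limits of this kind cover counting error only, since these reads are not independent molecules.

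Myh7, the heavy chain of slow fibres, was nearly absent. It had 0 counts in all 3 Cre-negative DMSO libraries, the deepest of which held 88958 heavy chain counts. There the limit of 3 counts allows a share of up to 0.00337%, and the exact 95% interval one of up to 0.00415%. The embryonic chain gene Myh3 and the perinatal Myh8 stayed at or below 0.806% in each library, the highest being Myh8 in knockout imiquimod replicate 2. Over the last 500 bases of their transcripts Myh1 and Myh2 share an identical stretch of 121 bases, and Myh4 shares 83 with either. Reads from those stretches cannot be assigned by sequence, and how the authors counted them is not given, so the split among the 3 is uncertain. Of the other member pairs checked, Mylpf with Myl1, Actn2 with Actn3 and Mybpc1 with Mybpc2 shared 10, 19 and 15, and Acta1 shared 29 with the cardiac actin gene Actc1.

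**Figure D4:**
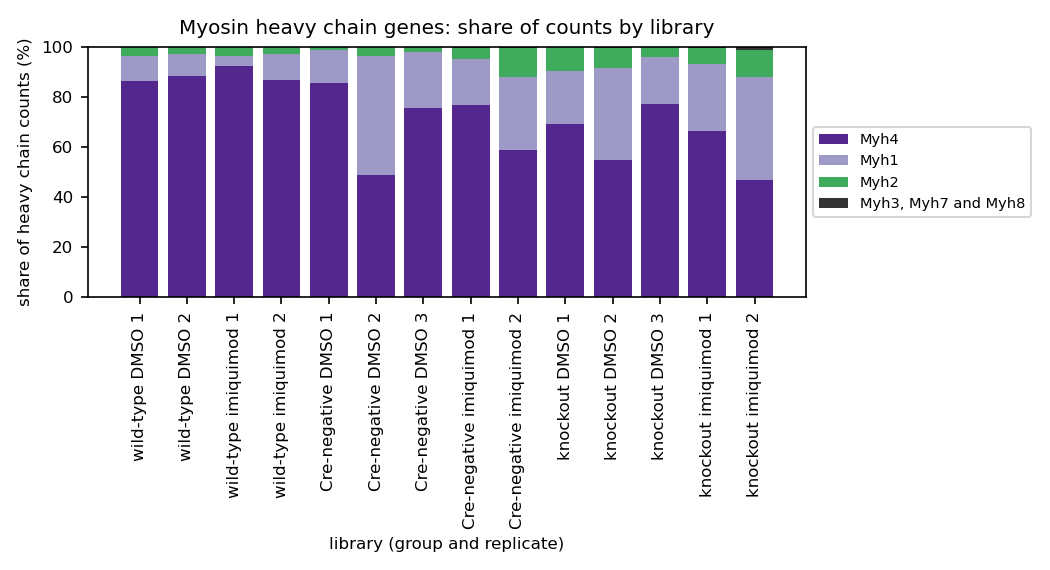
Share of each library's myosin heavy chain counts, in percent, held by Myh4, Myh1, Myh2 and the other 3 heavy chain genes together. Myh4 holds 86.5% or more in the 4 wild-type libraries and down to 47.0% in knockout imiquimod replicate 2.

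Lists of other muscle genes were counted in knockout against Cre-negative DMSO skin, where 15.7% of all genes fell and 14% rose. Of 38 other genes of the fast sarcomere and Z-disc, 19 fell and 0 rose (median -1.41), led by Ky (-4.14 ± 0.46 SE, adjusted p = 4.51e-05), a cytoskeletal protease-like protein, and the light chain kinase family gene Mylk4 (-3.43 ± 0.52 SE, adjusted p = 0.000421). Of 16 genes of excitation-contraction coupling, 10 fell, the junctional protein gene Jph2 (-3.05) among them, and 1 rose, the calcium pump regulator Sln (2.15). Energy and glycogen genes fell in 10 of 21, for instance Ak1, an adenylate kinase (-1.84), and Pfkm, muscle phosphofructokinase (-2.08). The 2 that rose were Ldha (1.04) and Hk2 (1.195), which many tissues make. Of the dystrophin complex 6 of 15 fell, with Dmd itself at -1.55 ± 0.30 (SE, adjusted p = 0.00213). Of 8 neuromuscular junction genes 2 fell, Lrp4 (-2.26) and Ache, and the receptor subunit gene Chrna1 did not pass (-0.25 ± 0.42 SE, adjusted p = 0.692). Of the atrophy and stress list 6 of 16 fell, among them the muscle growth inhibitor gene Mstn (-2.81). Of the myogenic factors and satellite cell markers, 3 of 15 fell, among them the transcription factor genes Mef2c (-2.01 ± 0.35 SE, adjusted p = 0.0011) and Myf6 (-1.68). The shares of the junction and myogenic lists are near that of all genes.

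With imiquimod genes of these lists fell in both control genotypes, where 10.1% of all genes fell in Cre-negative and 11.8% in wild-type skin. In Cre-negative skin 26 of 38 other sarcomere genes, 14 of 16 coupling genes, 11 of 21 energy genes and 9 of 15 dystrophin complex genes fell, and 0 of these rose. In wild-type skin 22, 8, 9 and 7 fell and 0, 0, 2 and 0 rose. In knockout skin 1 of the 38 sarcomere genes fell, Mylk4 (-2.95 ± 0.68 SE, adjusted p = 0.0131), and 0 rose. For 27 of the 38 the response in knockout skin was above that in Cre-negative skin, against 14% of all genes, for instance in Synpo2l (3.99), Mylk2 (3.86) and the myosin chaperone gene Unc45b (3.21). Both of these contrasts draw on the same libraries as those of the 31 genes.

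Several genes linked to stress were high in knockout imiquimod skin, and which cells made them was not tested. Against Cre-negative imiquimod skin, 7 of 16 genes of the atrophy and stress list and 15 of 38 other sarcomere genes were higher and 0 lower, beside 4 of the 31, where 11.6% of all genes were higher. Gadd45a, a growth arrest and DNA damage gene, had 29.1 and 31.8 CPM there, against 5.02 and 4.37 CPM in Cre-negative imiquimod and 4.84, 4.95 and 4.31 CPM in knockout DMSO skin. Both knockout imiquimod libraries were above all 12 others, and Gadd45a was higher than in Cre-negative imiquimod skin (2.70 ± 0.40 SE, adjusted p = 0.000887). Against knockout DMSO skin the value was 2.70 ± 0.35 (SE, adjusted p = 0.000371). Ankrd1, a titin-binding gene induced in strained muscle, had 111 and 33.9 CPM against 1.15 and 6.12 CPM in Cre-negative imiquimod skin (4.25 ± 0.96 SE, adjusted p = 0.0091), and 76.5 and 13.2 CPM in wild-type imiquimod skin. The small heat shock gene Hspb7 had 431 and 63.5 CPM against 14.9 and 13.8 CPM (4.11 ± 0.86 SE, adjusted p = 0.00603). These libraries did not overlap, but knockout replicate 1 was several-fold above replicate 2 for Ankrd1 and Hspb7. Trim63, the atrophy ubiquitin ligase MuRF1, had 42.1 and 75.8 CPM against 4.73 and 11.3 CPM (2.85 ± 0.76 SE, adjusted p = 0.0204). Fbxo32, the ligase atrogin-1, did not pass (1.33 ± 0.69 SE, adjusted p = 0.208). Markers of other cells were higher too: 10 of 12 endothelial genes (median 2.37) and 5 of 10 Schwann cell genes (median 1.99), with 0 lower in either list. Their part in this difference was not tested.

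The slow and cardiac-type genes that passed the filter were mostly not lower, and whether they came from muscle fibres was not tested. In knockout DMSO skin 1 of the 11 tested fell and 5 rose, the latter being Tnni1, Tpm3, Casq2, Tnnt2 and Myl7, where 14% of all genes were higher. The gene that fell was the cardiac actin gene Actc1, with 9.56, 0.492 and 2.77 CPM in Cre-negative and 0, 0 and 0.0564 CPM in knockout libraries. Tnnt2, cardiac troponin T, had 1.23, 0.766 and 1.09 CPM in Cre-negative and 28.3, 17.1 and 16.7 CPM in knockout DMSO libraries and rose (4.31 ± 0.54 SE, adjusted p = 9.65e-05). Casq2, the cardiac calsequestrin, was higher as well, from 7.38, 4.49 and 4.30 to 61.1, 16.2 and 26.6 CPM (2.67 ± 0.46 SE, adjusted p = 0.000931). Myl7, the atrial light chain gene, had 0 counts in each Cre-negative DMSO library and 5.09, 3.49 and 2.03 CPM in the knockout. The slow myosin Myh7 and the cardiac Myh6 did not pass the filter on low counts, Myh6 with 1 count in all. Tnnc1, the slow troponin C, was also below the filter.

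Genes of other skin layers moved with the muscle genes. Dermal adipocyte genes, 16 in number and none at 0 in any group, had summed levels of 3959 to 4477 CPM in wild-type DMSO and 1460.2 to 2803 CPM in Cre-negative DMSO libraries. In the low muscle groups they had 486 to 939 CPM in wild-type imiquimod, 267 to 417 CPM in Cre-negative imiquimod, 417 to 674 CPM in knockout DMSO and 362 to 516 CPM in knockout imiquimod skin. The 5 control DMSO libraries were again above the 9 others. Of the 16, 9 fell in the knockout with DMSO, 14 with imiquimod in wild-type, 11 in Cre-negative and 3 in knockout skin, and 0 rose. Of all genes, 15.7%, 11.8%, 10.1% and 2.52% fell in these comparisons. Adipoq, the fat cell hormone adiponectin, had 99.4, 26.5 and 79.1 CPM in Cre-negative and 31.3, 18.2 and 14.9 CPM in knockout DMSO skin (-1.69 ± 0.44 SE, adjusted p = 0.0119), and Car3, a carbonic anhydrase that muscle also makes, changed by -3.03 ± 0.38 (SE, adjusted p = 9.45e-05).

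HOX genes of the trunk, which keep a record of position along the body axis, were also highest in the 5 control DMSO libraries. Their summed level over 23 genes, of which 21 were tested, was 333 to 457 CPM in wild-type and 235 to 376 CPM in Cre-negative DMSO skin. It was 98.0 to 150.2 and 113 to 131 CPM with imiquimod, and 124 to 153 and 126 to 147 CPM in knockout skin with DMSO and imiquimod. Of the 21, 5 fell in the knockout with DMSO (Hoxa5, Hoxa7, Hoxa9, Hoxc4 and Hoxc6), 10 in wild-type and 7 in Cre-negative skin with imiquimod, and 0 rose in these 3 comparisons. No gene of the list was at 0 throughout the DMSO groups, and 1 was at 0 in wild-type and 2 in Cre-negative imiquimod skin. The shares of all genes that fell were 15.7%, 11.8% and 10.1% in the same order. Hoxc8 fell in wild-type skin with imiquimod (-3.24 ± 0.35 SE, adjusted p = 0.000103) and Hoxc4 in the knockout with DMSO (-1.40 ± 0.31 SE, adjusted p = 0.00456). No label gives the body site of a library. The part of site or of depth of sampling in the muscle values was not tested.

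Markers of other cell types varied less uniformly. Fibroblast genes had 3427 to 3693 CPM in Cre-negative DMSO, 1748 to 2869.9 CPM in knockout DMSO, 974 to 2145 CPM in Cre-negative imiquimod and 2462 to 3071 CPM in knockout imiquimod libraries. Of the 15 genes 5 fell and 1 rose in the knockout with DMSO, where 15.7% of all genes fell and 14% rose. With imiquimod 6 fell in wild-type and 5 in Cre-negative skin, where 1 rose. In these comparisons, which recur below, 11.8% and 10.1% of all genes fell and 9.59% and 8.15% rose. Endothelial genes were higher in knockout skin, with 75.5 to 95.7 CPM in Cre-negative DMSO, 119 to 232 CPM in knockout DMSO, 57.2 to 64.6 CPM in Cre-negative imiquimod and 267 to 562 CPM in knockout imiquimod skin, and 4 of 12 rose in the knockout with DMSO and 0 fell. Of 11 smooth muscle genes Lmod1 fell in the knockout with DMSO, as did Synm, which striated muscle also makes. The smooth muscle list had 656 to 937 CPM in Cre-negative and 360.0 to 1189 CPM in knockout DMSO libraries, which overlapped. With imiquimod the list was lower in the control genotypes, at 206 to 549 CPM in wild-type against 921 to 937 CPM with DMSO, and at 109 to 232 CPM in Cre-negative skin. There 4 and 5 of the 11 fell and 0 rose. Epidermal keratinocyte genes were at 16106 to 24270.1 CPM in Cre-negative and 28956 to 45523 CPM in knockout DMSO skin, higher in each knockout library. With imiquimod the order was reversed, at 21985 to 33112 CPM in Cre-negative and 11610 to 18707 CPM in knockout libraries. Wild-type skin had 13337 to 15841 CPM with DMSO and 30236 to 61610 CPM with imiquimod. In the knockout with DMSO 4 of these 15 genes rose, Krt14, Dsg3, Itga6 and Sfn, and 3 fell, Krt1, Krt10 and Krt15. Schwann cell genes had 102 to 105 CPM in Cre-negative and 71.8 to 96.3 CPM in knockout DMSO libraries, and of 10 tested 1 fell and 1, Ncmap, rose. With imiquimod 4 of the 10 fell and 1 rose in wild-type skin, and 4 fell in Cre-negative skin. The part of these cell types in the muscle result was not tested. Cartilage markers, which would mark the ear, could be tested for only 2 of 14 genes, Matn4 and Sox9, neither of which passed in the knockout with DMSO (0.61 and -0.23). With imiquimod Matn4 fell in wild-type skin, to 0 counts in both libraries, and Sox9, which hair follicles also make, fell in Cre-negative (-1.74) and knockout skin (-1.88). Since only these 2 of the 14 passed the filter on low counts, the sum of the list says little about cartilage. It was 332 to 384, 223 to 407 and 193 to 378 CPM with DMSO in wild-type, Cre-negative and knockout skin. With imiquimod the sum was 154 to 157, 72.2 to 133 and 62.0 to 99.6 CPM in the same order. Of the 14 genes 5 were at 0 in each DMSO group, and 9, 8 and 8 in the imiquimod groups.

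**Figure D5:**
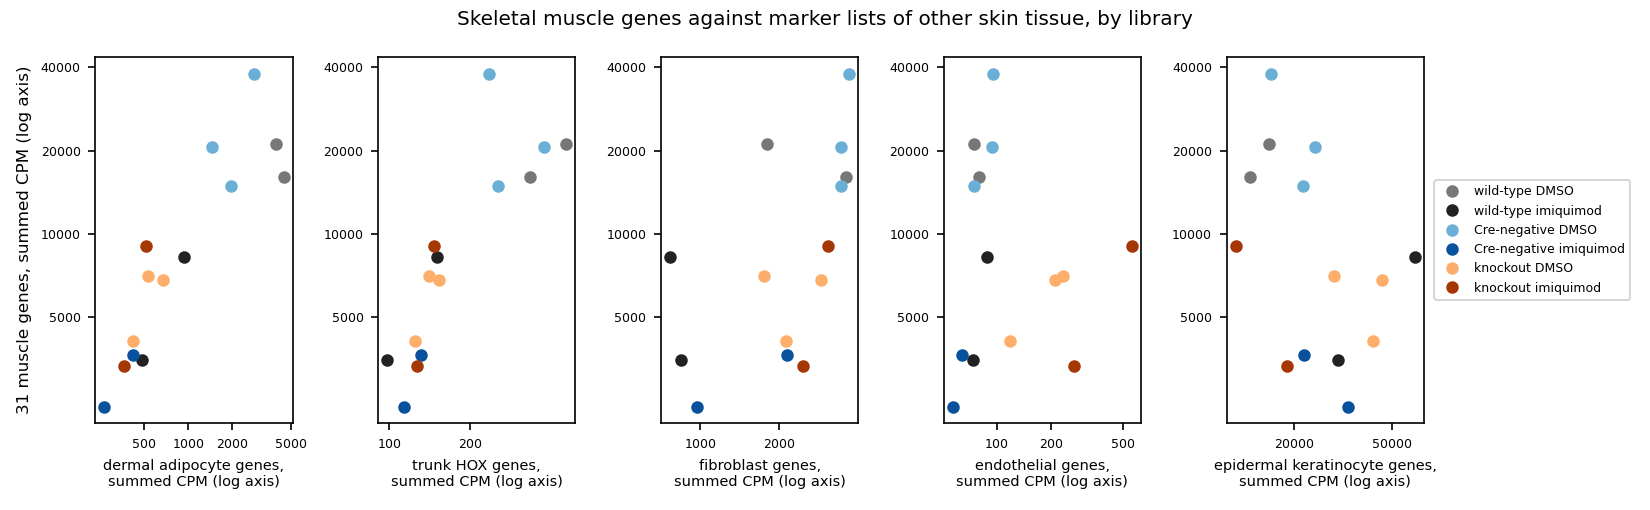
Summed CPM of the 31 muscle genes (vertical, log axis) against the summed CPM of 5 marker lists (horizontal, log axes), 1 point per library, coloured by group. Adipocyte and trunk HOX levels are highest in the 5 control DMSO libraries, which are also highest for muscle, while endothelial and keratinocyte levels do not follow.

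Over the 14 libraries the 31 genes varied together. The 465 pairs among them had Pearson r of 0.16 to 0.98 with a median of 0.82, on log2 CPM. Acta1 followed the mean of the other members most closely (r = 0.99) and Actn2 least (r = 0.59). All of these points share the 6 groups and the scaling of each library, so the values are descriptions. The mean of the coupling list followed the mean of the members at r = 0.99, that of the adipocyte list at 0.86, the HOX list at 0.88, the smooth muscle list at 0.81, the Schwann cell list at 0.75, the fibroblast list at 0.71, the keratinocyte list at 0.20 and the endothelial list at -0.04. Among genes in none of the lists, those most like the members' mean included Sh3bgr (0.98), Eef1a2 (0.97), and, all at 0.96, Hjv, Tcea3, Smyd1, Smarcd3, Fbxo40, Abcb4 and Tmem35a. Several are known from muscle, such as Smyd1, a methyltransferase of sarcomere assembly, and Eef1a2, the elongation factor form of muscle and nerve. The median r over all tested genes was 0.06.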

How the data were processed

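RNA of mouse skin was read as 3′ tags (QuantSeq) in 14 libraries. The authors deposited 1 table of raw counts per gene from featureCounts, with gene name, position and exon length (a Length column, other than a count) per the file headers. The submitters' processing notes name STAR, featureCounts, DESeq2, GRCm38 and GRCm39, without roles. Strand and multimapping settings: not given in the sources used here. The table's positions are on GRCm39, and promoter sequences are from RefSeq on GRCm38.p6.

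Libraries were grouped by genotype and treatment from the labels. From the counts, edgeR 4.0.16 in R 4.3.3 (filterByExpr, TMM scaling, 6 group means over all 14 libraries, quasi-likelihood test) gave log2 fold changes for 8 comparisons, with Benjamini-Hochberg adjustment over 16027 genes and a threshold of 0.05. An SE is the size of the log2 fold change divided by the square root of F. Levels are TMM-scaled CPM; log2 CPM has a prior count of 2. The intervals are exact binomial at 95%. Comparisons share libraries: the 3 Cre-negative and 3 knockout DMSO libraries each enter several. The members, the 16 lists (281 of 282 genes found) and the rules were chosen with earlier results of these data known. Library values are given for 2 genes of each role, set by rule (Myh4, Mybpc1, Acta1, Tpm2, Actn3, Des, Pvalb, Ryr1, Ckm and Eno3), for Myh1 and Myh2, and for Nedd8. The 2 genes have the largest and smallest change of their role in knockout against Cre-negative DMSO skin. They are therefore extremes of that comparison, not typical members. The library values of Tnni2, Tcap, Actn2 and Casq1 are outside this rule. Of the other lists, the first 3 genes and up to 4 with the smallest p per comparison could be named, and the 10 genes most like the members; any other gene was named after its values were seen. A few genes these rules name are not reported here.

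Alternatives were other scalings, DESeq2 1.42.0, limma 3.58.1 (voom with sample weights), no filter or a stricter one (50 counts in 3 libraries), a replicate block, sex as a term, only the groups compared, leaving out each library and, chosen after the data were seen, leaving out both libraries high in 18S ribosomal RNA. The scripts were tested on simulated counts. Library depth ranged from 5552954 to 34362477 counts, and the members' lowest count in a library was 19. Same-numbered libraries of different groups did not deviate together: 11 of 31 pairs had a correlation over 0.1.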

Additional observations from a re-analysis of the deposited data

Results flagged for a closer look

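The response of the muscle genes to imiquimod differed between knockout and Cre-negative skin for 26 of the 31 genes, by edgeR's test of the difference itself with Benjamini-Hochberg adjustment. Of all genes, 14% were higher and 9.63% lower by this test. The count was 6 without knockout imiquimod replicate 1 and lower still with sex as a term. The low knockout DMSO levels enter this contrast directly. The log2 difference between the responses, knockout minus Cre-negative, was as follows for the thick filament: Myl1 4.001, Myh1 3.75, Mybpc2 3.62, Myh4 3.54 and Mybpc1 2.98. In the thin filament Acta1 had 3.71, Neb 3.23, Tnnc2 3.20 and Tnnt3 2.90. Of the Z-disc genes Des had 3.55, Actn2 3.43, Actn3 3.21, Ttn 3.04, Ldb3 3.00, Tcap 2.96, Myot 2.23 and Myoz1 2.17. The calcium handling genes had 4.64 (Cacna1s), 4.43 (Casq1), 3.30 (Atp2a1), 3.28 (Ryr1), 2.87 (Pvalb) and 2.75 (Trdn). Of the energy genes Pygm had 3.64, Mb 3.21 and Eno3 2.53. Every one of these values was positive. In Cre-negative skin 25 of these 26 genes fell with imiquimod, Actn2 being the exception, and in knockout skin 0 of them passed the test.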

How the results depend on the processing

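Scaling by median-of-ratios or upper quartile, a stricter filter, DESeq2 and fitting only the groups compared kept each count of called members within 1.5 times. With library size alone, 30 members fell with imiquimod in wild-type skin, and the median over all genes shifted to -0.76 there, with the members at -2.82. The shares of all genes called in these other fits are not reported here, so their counts lack that baseline. Without a filter on low counts the counts were 11 for knockout against Cre-negative skin with imiquimod (10 higher, 1 lower), 1 for imiquimod in knockout skin and 2 for Cre-negative against wild-type skin. Voom called 1 for knockout against Cre-negative skin with imiquimod, and leaving out both libraries high in 18S ribosomal RNA gave 0. With sex as a term 6 members fell in the knockout with DMSO (median -1.43), and 5 differed in response (median 2.50). The sex term rests on the 1 female library of the Cre-negative DMSO group. Leaving out 1 library at a time gave 17 to 24 calls for the knockout against the Cre-negative DMSO group, 0 to 6 for the same genotypes with imiquimod, 2 to 12 for imiquimod in wild-type, 18 to 30 in Cre-negative and 0 to 0 in knockout skin, 6 to 27 for the difference between responses, 6 to 20 for knockout against wild-type and 0 to 0 for Cre-negative against wild-type skin. Tnnc2 in wild-type skin ran from -2.64 without wild-type imiquimod replicate 1 to 0.0602 without replicate 2. The cause of these shifts was not tested, beyond the smaller number of libraries. With the replicate number as a block the counts, in the same order, were 23, 5, 20, 31, 0, 26, 11 and 0. Of 14 libraries 6 correlated best with their own number, so the numbers are not taken as pairs. Groups of 2 or 3 libraries limit what the tests can show.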
